A study of Mus musculus with 18 samples.

Results

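Thyroids of Glis3KO2 mice (KO2) were compared with thyroids of wild-type mice (WT) on a normal diet, in 10 of the 18 arrays of the series. Members were chosen by array title, 5 titled as 1 month old WT thyroid and 5 as 1 month old Glis3KO2 thyroid. All mice were C57BL/6, weaned at 3 weeks, and both groups received the NIH31 diet without low-iodine treatment. RNA of each thyroid was amplified and labelled with Cy3, and a single-colour Agilent array with 45018 features measured it. The deleted part of Glis3, the promoter or cell type in which it was deleted and the sex of the mice are not given in the sources used here. Nothing in the labels says how the replicates were raised, so p-values measure the spread between these arrays. The comparison asks which thyroid genes differ when Glis3 is targeted and iodide supply is normal.

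Glis3 is a zinc finger transcription factor of the GLIS family. Thyroid follicular cells take up iodide from blood, pass it into the follicle lumen through anion transporters such as pendrin, and couple it there to thyroglobulin to make thyroid hormone. Thyrotropin (TSH), acting through its receptor, drives both hormone synthesis and growth of these cells. The gland lies beside the parathyroids, trachea, neck muscle, fat and, in the lower neck and chest, thymus, all of which can come with it in dissection.

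Levels are log2 signals relative to each array's 75th percentile, so that 0 is the level of that percentile and 1 unit is 2-fold. They compare arrays for 1 gene and not genes with each other. The mean level of a list is the mean of these values over its measured genes. Differences are KO2 minus WT, given with the standard error (SE) of a limma fit. A gene passed the test, and is said to have risen or fallen, when its Benjamini-Hochberg adjusted p over 17932 genes was under 0.05. The fit used all 18 arrays, the 8 low-iodine ones adding to the estimate of each gene's spread. Those 8 came from mice given low iodine for 6 days. They were read on another scanner model, with another release of the extraction software, than the normal-diet arrays. From 76.7% to 90.6% of their spots were well above background, against 60.1% to 75.7% on the normal-diet arrays. The part of the scanner or the diet in their spread was not tested.

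The 10 arrays correlated at 0.967 to 0.989 within a genotype and at 0.962 to 0.983 between genotypes. From 60.1% (KO2 replicate 4) to 75.7% of spots were well above background. Some arrays stood apart in markers. WT replicate 5 was highest in thymocyte genes, WT replicate 1 was lowest of the WT arrays in thymic epithelium genes, and KO2 replicate 3 was low in parathyroid genes. Xist, the RNA of the inactive X chromosome, ran from 2.28 to 3.29 on the WT arrays and from 2.11 to 2.60 on KO2 replicates 1 to 4, but was −5.64 on KO2 replicate 5. The Y-linked genes Ddx3y, Eif2s3y, Uty and Sry were not well above background on any of the 10 arrays, Kdm5d was on 2 KO2 arrays and Usp9y on 1 WT array. Glis3 itself was well above background on 4 arrays of each group and ran from −6.08 to −4.78 in WT and from −5.46 to −4.16 in KO2. Its difference of 0.45 ± 0.42 (SE, adjusted p = 0.736) checks nothing about the labels where the probe lies outside the deleted part.

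KO2 thyroids had higher levels of a short-chain dehydrogenase (Sdr16c6), a proton pump subunit (Atp6v1c2) and Ndrg2, and lower levels of many genes of cell division, of pendrin and of fibrillar collagens. In all, 253 of 17932 genes passed the test (1.41%), 92 higher (0.513%) and 161 lower (0.898%). Of the called genes, 188 differed at least 2-fold, and 248 (98.0%) had the same sign on each of the 3 slides, against 42.0% of all genes. The arrays of the groups did not overlap for 73 of the higher and 95 of the lower calls, against 3.51% of all genes (1.86% higher and 1.66% lower). Calls were chosen for a large difference on these same arrays, so their agreement by slide and lack of overlap are no separate check. For 20 of the calls no KO2 array was well above background, and for 2, Speer3 and Tmem86b, named after their values were seen, no WT array was.

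The count depended on which arrays set the spread. With the 10 normal-diet arrays alone, 3 genes passed (0.0167%), Sdr16c6, Atp6v1c2 and Ndrg2, and with slide as a block 5 did (0.0279%), these and Snx31 and Afp. With slide as a block on all 18 arrays 196 passed, 177 of them among the 253. Of the genes named below, Psmb11, Ccl25, Krt5, E2f8, Nkx2-1, Bnip3, Cplx2 and Acsm3 lost their calls in that fit, with adjusted p from 0.0526 to 0.0765. All 253 calls had an unadjusted p under 0.05 in the fit of 10 arrays, as did 2561 genes in total. The median within-group standard deviation (SD) over all genes was 0.356 on the normal diet and 0.368 on low iodine, but for the called genes it was 0.571 and 0.325. The pooled spread was thus smaller than that of the 10 arrays for the genes called. Leaving out 1 array gave from 124 calls (without KO2 replicate 3) to 679 (without KO2 replicate 4), with 145 without WT replicate 5, 156 without WT replicate 2, 160 without KO2 replicate 1 and 141 without KO2 replicate 5.

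**Figure D1:**
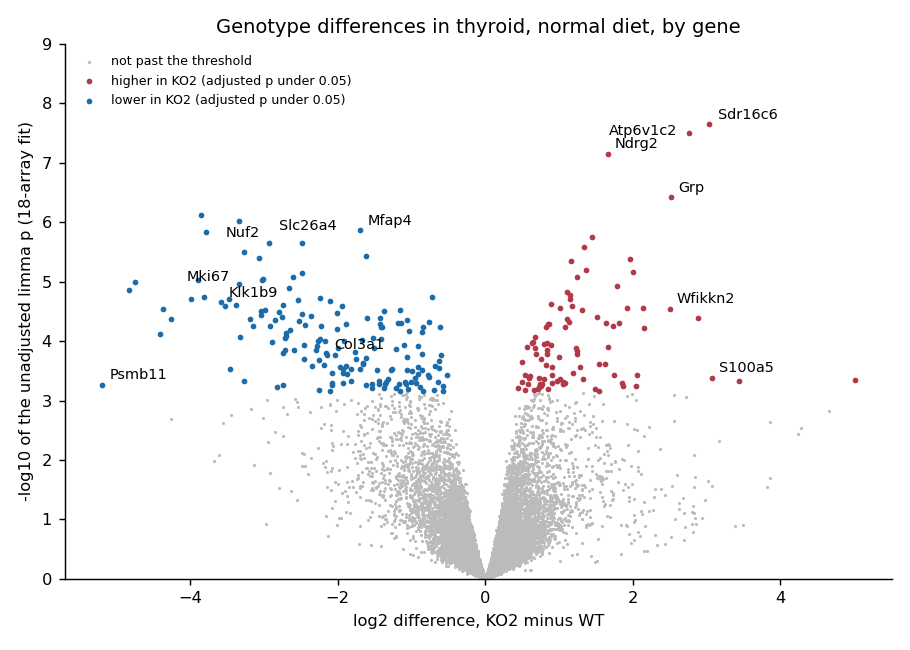
Each point is 1 of 17932 genes, with the log2 difference between KO2 and WT on the horizontal axis and −log10 of the unadjusted p of the 18-array limma fit on the vertical axis; coloured points passed the adjusted threshold, 92 higher (red) and 161 lower (blue). Sdr16c6, Atp6v1c2 and Ndrg2, at 3.03, 2.76 and 1.66, have the smallest p of all genes.

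Of the genes that rose, Sdr16c6 had the smallest p. It belongs to the short-chain dehydrogenase family, members of which oxidise retinol and steroids. Its level was −4.93, −5.21, −5.26, −5.05 and −5.38 on the WT arrays, in replicate order, and −2.75, −1.80, −1.72, −1.94 and −2.47 on the KO2 arrays. Every KO2 array lay above every WT array, and the difference was 3.03 ± 0.30 (SE, 8.17-fold, adjusted p = 0.00028). Within slides 1, 2 and 3 it was 3.13, 3.41 and 2.60. Sdr16c6 was well above background on 4 WT arrays and all 5 KO2 arrays. Of its list of 25 measured retinoid, steroid and aldehyde dehydrogenases and related genes, 1 rose and 1 fell (8%, against 1.41% of all genes). By limma 8 had an unadjusted p under 0.05, 3 higher and 5 lower, against 2360 of all 17932 genes. The median of the list was 0.01.

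Atp6v1c2 encodes a tissue-restricted C subunit of the vacuolar ATPase, which pumps protons into organelles or across the plasma membrane. It was −1.30, −0.79, −1.95, −1.56 and −1.79 on the WT arrays, in replicate order, and 1.74, 0.83, 1.66, 1.05 and 1.11 in KO2. All KO2 arrays were above all WT arrays, and the difference was 2.76 ± 0.28 (SE, 6.78-fold, adjusted p = 0.00028), with 2.14, 2.73 and 3.10 within the slides. None of the other 24 measured subunits and partners passed. The ubiquitous C subunit Atp6v1c1 had a difference of 0.22 ± 0.17 (SE, adjusted p = 0.659). Atp6v1a and Atp6v1h, which did not overlap between the groups either, had 0.46 ± 0.15 (SE, adjusted p = 0.172) and 0.41 ± 0.15 (SE, adjusted p = 0.215).

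Ndrg2, a gene that responds to hypoxia and steroid hormones in several tissues, was 2.11, 2.98, 2.87, 2.76 and 2.32 in WT and 4.58, 4.17, 4.25, 4.41 and 3.95 in KO2. The groups did not overlap, and the difference was 1.66 ± 0.18 (SE, 3.17-fold, adjusted p = 0.00042). Of the 31 measured genes of glycolysis and the hypoxia response, the mitophagy receptor gene Bnip3 was the only other to pass (0.91 ± 0.20 SE, adjusted p = 0.0357). Its adjusted p rose above the threshold with 7 of the 10 arrays left out in turn, up to 0.108 without KO2 replicate 3. The 2 calls made up 6.45% of this list, against 0.513% of all genes higher, and its median was 0.23.

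Grp, which encodes gastrin-releasing peptide, was 6.27, 6.09, 4.47, 5.01 and 4.69 in WT and 8.20, 7.60, 7.83, 8.26 and 7.27 in KO2. It rose by 2.53 ± 0.31 (SE, 5.76-fold, adjusted p = 0.00171) without overlap. Of 22 measured peptide hormone genes, Grp and Scg5, a chaperone of prohormone convertase, passed (Scg5 0.83 ± 0.15 SE, adjusted p = 0.0111). They made up 9.09% of that list, against 0.513% of all genes higher. With median scaling or with no scaling Scg5 no longer passed. Among 11 markers of the C cells, the calcitonin-producing cells of the gland, only the synaptic gene Cplx2 passed (1.19 ± 0.27 SE, adjusted p = 0.0346). It was 9.09% of these markers, against 0.513% of all genes higher, and no longer passed with 7 of the 10 arrays left out in turn. The mean level of C cell markers overlapped, 0.82 to 1.31 in WT and 0.81 to 1.37 in KO2.

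The other large differences among genes that rose belonged to no single list. S100a5, a calcium-binding protein gene, rose 8.45-fold (3.08 ± 0.70 SE, adjusted p = 0.0386), from a WT range of −2.01 to 2.42 to a KO2 range of 2.48 to 4.62. It kept no call with 6 of the 10 arrays left out in turn, the adjusted p reaching 0.110. Wfikkn2, an extracellular protease inhibitor that binds growth differentiation factors, was −0.01 to 1.72 in WT and 1.83 to 3.78 in KO2 (2.50 ± 0.44 SE, 5.66-fold, adjusted p = 0.00977). Kcne1, an accessory subunit of potassium channels, rose by 2.14 ± 0.37 (SE, adjusted p = 0.00977), with 0.09 on its other probe. Coagulation factor X (F10) rose by 1.97 ± 0.29 (SE, adjusted p = 0.00458) and the sorting nexin Snx31 by 1.93 ± 0.34 (SE, adjusted p = 0.00977). Cbs, the first enzyme of transsulfuration, Acsm3, a medium-chain acyl-CoA synthetase, and Ctxn3 rose by 1.86, 1.85 and 1.81. The calls of Cbs and Acsm3 were lost with 9 and 7 of the 10 arrays left out in turn.

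Early response genes, which many signals induce within minutes, had 2 higher and 0 lower calls among 31 measured (6.45%, against 0.513% of all genes higher). Dusp1, a phosphatase that switches off MAP kinases, was 1.20, 1.35, 0.03, 1.15 and 1.28 in WT and 3.00, 2.79, 2.53, 1.72 and 3.13 in KO2 (1.63 ± 0.30 SE, 3.10-fold, adjusted p = 0.0111). WT replicate 3 was the lowest array by a wide margin, and the groups did not overlap. Fosl2, an AP-1 subunit, rose by 0.84 ± 0.17 (SE, adjusted p = 0.0167), but not with KO2 replicate 3 (0.0571) or KO2 replicate 5 left out. Dusp1 also stands in the list of 17 glucocorticoid-responsive genes, where it was the only call. Both lists had medians above 0, 0.35 and 0.44, against 0.04 over all genes.

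Among 20 measured genes of thyroid hormone synthesis and iodide handling, 1 fell and 1 rose (10%, against 1.41% of all genes called in either direction). By limma 6 had an unadjusted p under 0.05, 3 higher and 3 lower, against 2360 of all 17932 genes. The median was 0.07, with differences in both directions. Slc26a4 encodes pendrin, the anion exchanger of the apical membrane of the follicular cell. It was −1.05, −2.30, −3.37, −2.70 and −2.54 on the WT arrays, in replicate order, and −4.00, −4.55, −5.18, −5.21 and −5.43 on the KO2 arrays. No KO2 array reached the lowest WT array, and the difference was −2.48 ± 0.35 (SE, 5.58-fold lower, adjusted p = 0.00360). Within slides 1, 2 and 3 it was −3.50, −2.36 and −2.10. With the 10 arrays alone its adjusted p was 0.0673.

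The sodium/iodide symporter Slc5a5, which brings iodide in across the basolateral membrane, was −1.79 to 0.56 in WT and −2.001 to −0.34 in KO2 (−0.55 ± 0.39 SE, adjusted p = 0.620). Thyroglobulin (Tg), the scaffold of the hormone, was 8.46 to 8.86 in WT and 8.41 to 9.03 in KO2 (0.07 ± 0.17 SE, adjusted p = 0.913). Its 2 probes differed in sign, both near 0. The hydrogen peroxide-making oxidase Duox1 (0.14 ± 0.31 SE) and the maturation factor Duoxa2 (−0.28 ± 0.20 SE) did not pass, nor did the iodide-recycling Iyd (0.06 ± 0.20 SE) or the other apical anion transporters Slc26a7 (0.18 ± 0.15 SE), Ano1 (0.01 ± 0.16 SE) and Cftr (−0.69 ± 0.23 SE, adjusted p = 0.186). The monocarboxylate transporter Slc5a8 (0.23 ± 0.23 SE) and the potassium channel subunits Kcnq1 (0.01 ± 0.23 SE), Kcne2 (−0.30 ± 0.65 SE) and Kcne3 (0.13 ± 0.26 SE) did not pass either. The hormone transporter Slc16a10 had −0.75 ± 0.42 (SE), and the deiodinases Dio1, Dio2 and Dio3 had 0.11 ± 0.21, 0.40 ± 0.80 and 0.95 ± 0.43 (SE).

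The TSH receptor gene Tshr was 0.50, −0.43, −0.87, −0.44 and 0.06 in WT and 0.23, 1.90, 1.04, 0.47 and 1.85 in KO2. KO2 replicates 1 and 4 lay below WT replicate 1, so the groups overlapped. The difference of 1.33 ± 0.32 (SE) missed the threshold (adjusted p = 0.0519) and was 1.39, 1.40 and 1.23 within the slides. With slide as a block on the 18 arrays it passed (0.0246), as it did in 11 of 30 alternatives, over which the adjusted p ran from 0.00509 to 0.350. Nkx2-1, a homeodomain factor that specifies the thyroid, was 2.97 to 3.27 in WT and 3.51 to 3.98 in KO2. It rose by 0.61 ± 0.14 (SE, adjusted p = 0.0368), the only one of 12 lineage factors to pass (8.33%, against 0.513% of all genes higher). It lost the call with 8 of the 10 arrays left out in turn. Its partners Pax8 (0.79 ± 0.26 SE, adjusted p = 0.171), Hhex (0.20 ± 0.21 SE) and Foxe1 (0.18 ± 0.29 SE) did not pass. The mean level of 11 follicular cell markers was 2.41 to 3.01 in WT and 2.58 to 2.98 in KO2, so the labelled tissue carried its markers on every array. Less RNA per cell and fewer cells of a type cannot be told apart in these whole-gland samples.

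**Figure D2:**
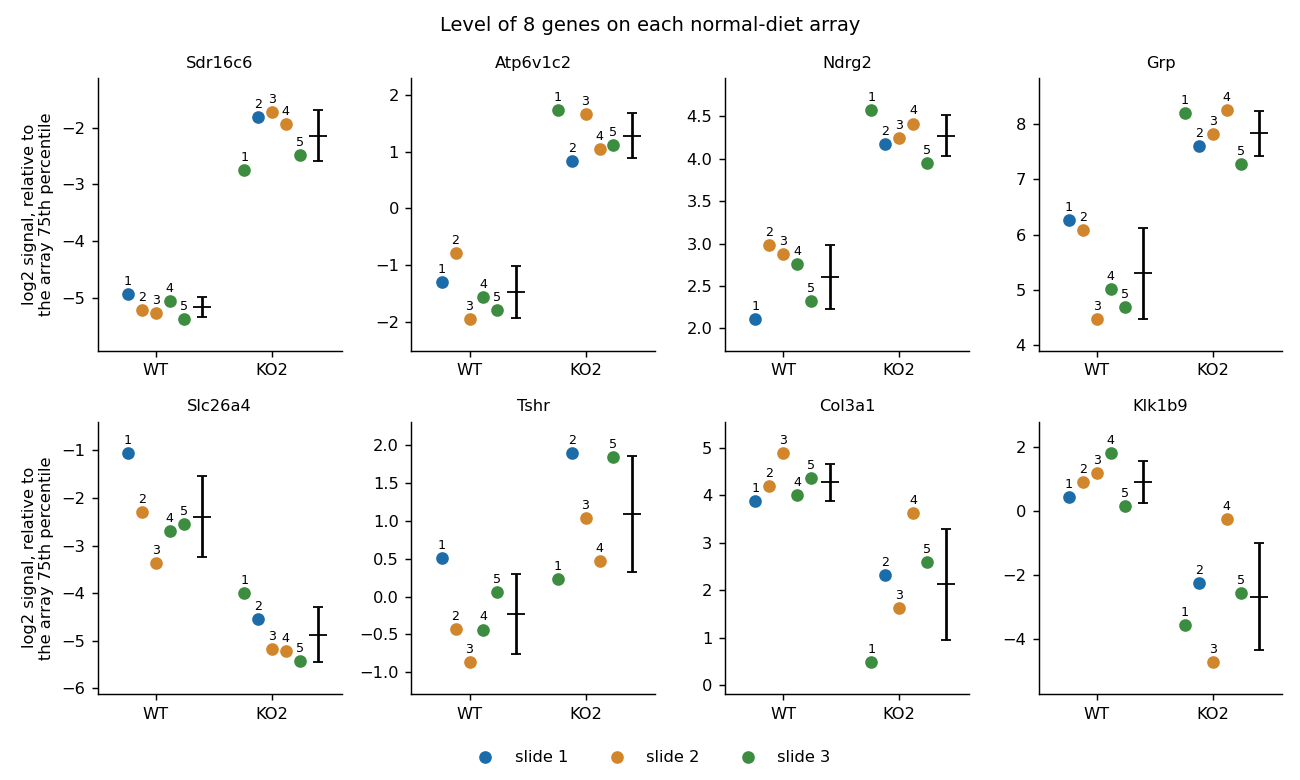
Log2 signal relative to the array 75th percentile for 8 genes on the 5 WT and 5 KO2 arrays; numbers are replicates, colours are slides, and the bar at the right of each group is the mean ± SD. Sdr16c6, Atp6v1c2, Ndrg2 and Grp are higher on every KO2 array, Slc26a4, Col3a1 and Klk1b9 are lower on every KO2 array, and Tshr overlaps.

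Genes of cell division made up 56 of the 161 genes that fell (34.8%). The 6 lists held 173 measured genes of the mitotic and replication machinery, of which 56 fell and 0 rose (32.4%, against 1.41% of all genes). The median difference over the 173 was −0.90, and −1.15, −0.61 and −1.13 within slides 1, 2 and 3. For 41 of the 173 genes every KO2 array lay below every WT array, against 1.66% of all genes. With the 10 arrays alone none of the 56 passed by limma, though each had an unadjusted p under 0.05. The median within-group SD of the called division genes was 0.967 against 0.412 on the low-iodine arrays.

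The kinetochore links chromosomes to the spindle, and 12 of its 29 measured genes fell, with 0 higher. Nuf2, part of the NDC80 complex that grips microtubules, was −1.63, −1.59, −2.22, −2.76 and −0.36 in WT and −5.42, −4.92, −4.72, −3.11 and −5.07 in KO2. WT replicate 5 was the highest WT array and KO2 replicate 4 the highest KO2 array, and the groups did not overlap. Nuf2 fell by 2.94 ± 0.42 (SE, 7.66-fold, adjusted p = 0.00360), with −3.28, −2.02 and −3.69 within the slides. Cenpf had a larger difference of −4.76 ± 0.76 (SE), but its highest KO2 array (−2.55) lay just above its lowest WT array (−2.60). It was well above background on only 1 KO2 array, and its difference ran from −5.59 to −2.08 over 30 alternatives. No KO2 array was well above background for Ska1 or Knl1, which by their bounds were at least 5.34-fold and 3.82-fold lower. Over 30 alternatives their differences reached −0.93 and −0.79, and both lost their calls with normexp background correction. Knl1 has 3 probes, 1 of them with a difference of only −0.46, and did not pass when they were averaged. The median of the list was −1.30, or −1.09 with such genes at their bound.

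Among mitotic kinases, cyclins and regulators of anaphase, 13 of 28 fell. Birc5 (survivin) and Cdca8 (borealin), both of the chromosomal passenger complex that corrects faulty attachments, fell by 3.53 ± 0.61 and 2.54 ± 0.43 (SE). Cdca8 was 0.91, 1.06, 0.46, −0.24 and 2.40 in WT and −1.97, −1.62, −1.92, −0.14 and −2.46 in KO2, so that KO2 replicate 4 lay above WT replicate 4. The mitotic kinase Pbk fell by 4.83 ± 0.79 (SE) and the kinase Melk by 2.74 ± 0.47 (SE). Pbk was well above background on only 1 KO2 array and Melk on 2. Over 30 alternatives the differences ran from −5.76 to −1.90 for Pbk and from −3.24 to −0.99 for Melk. In both, KO2 replicate 4 lay above the lowest WT array.

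Spindle motors, microtubule proteins and cytokinesis genes had the most calls, 16 of 30 lower, and all 30 had a negative difference. The median was −2.01, or −1.11 with genes below background at their bound. Shcbp1, a protein of the midbody, was −1.93, −1.90, −2.48, −3.15 and −0.20 in WT and −5.25, −5.26, −5.55, −3.62 and −5.31 in KO2 (−3.07 ± 0.46 SE, adjusted p = 0.00458). The other KO2 arrays lay close together below KO2 replicate 4, and none reached a WT array. The kinesins Kif11 and Kif18b and the spindle pole gene Aspm were below background on all KO2 arrays. By their bounds they were at least 2.04-fold, 1.92-fold and 1.78-fold lower. Over 30 alternatives their differences reached −0.39, −0.46 and −0.46, and each lost its call with normexp background correction. Other probes of Kif11 and Aspm differed in sign from the one used, reaching 0.03 and 0.65, and neither gene passed when the probes were averaged.

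Chromosome condensation and chromatin genes had 4 calls of 22, all lower. Mki67, the usual marker of cycling cells, was 1.09, 1.04, 0.04, −0.50 and 2.75 in WT and −3.42, −2.72, −2.76, −0.71 and −2.66 in KO2. It fell by 3.34 ± 0.54 (SE, 10.1-fold, adjusted p = 0.00731). The condensin subunit Ncapg fell by 3.47 ± 0.59 (SE, adjusted p = 0.00939), and its KO2 replicate 4 (−2.36) and WT replicate 4 (−2.35) met at the edge of the groups. Topoisomerase II alpha (Top2a), which untangles sister chromatids, was −4.15 to −0.34 in WT and −6.01 to −4.91 in KO2 (−2.85 ± 0.52 SE, adjusted p = 0.0108). Its call was lost with normexp background correction, and its difference ran from −3.23 to −1.18 over 30 alternatives. In the list of genes for DNA replication and nucleotide supply 4 of 42 fell, with a median of −0.36. They were the transcription factors E2f1 (−1.94 ± 0.34 SE) and E2f8 (−1.82 ± 0.42 SE), the thymidine kinase Tk1 (−1.41 ± 0.28 SE) and Dtl (−3.38 ± 0.58 SE), which marks replication factors for destruction. Dtl was well above background on only 1 KO2 array, and its difference ran from −3.98 to −0.90 over 30 alternatives. E2f8 lost its call with 6 of the 10 arrays left out in turn, and Tk1 with KO2 replicate 3 left out (0.0514). Among genes of DNA damage repair in dividing cells 7 of 22 fell, with a median of −0.87. Chek1, the replication checkpoint kinase, fell by 2.22 ± 0.41 (SE), and Pclaf, a partner of the sliding clamp, by 3.16 ± 0.59 (SE). Chek1 was well above background on only 1 KO2 array. It lost its call with normexp background correction, and its difference ran from −2.43 to −0.33 over 30 alternatives. The glycosylase Neil3 and the cohesin acetyltransferase Esco2 were by their bounds at least 3.56-fold and 2.25-fold lower. Over 30 alternatives their differences reached −0.66 and −0.45, and both lost their calls with normexp background correction.

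Of 19 inhibitors and markers of quiescence, 2 fell (10.5%, against 0.898% of all genes lower). Both are known from cycling cells, the phosphatase Cdkn3 (−2.44 ± 0.45 SE) and the Max-binding repressor Mxd3 (−3.19 ± 0.58 SE). Mxd3 was well above background on only 2 KO2 arrays and lost its call with normexp background correction. The median of that list was 0.05. The histone gene H2ac4, in no list, fell by 2.72 ± 0.53 (SE, adjusted p = 0.0149).

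**Figure D3:**
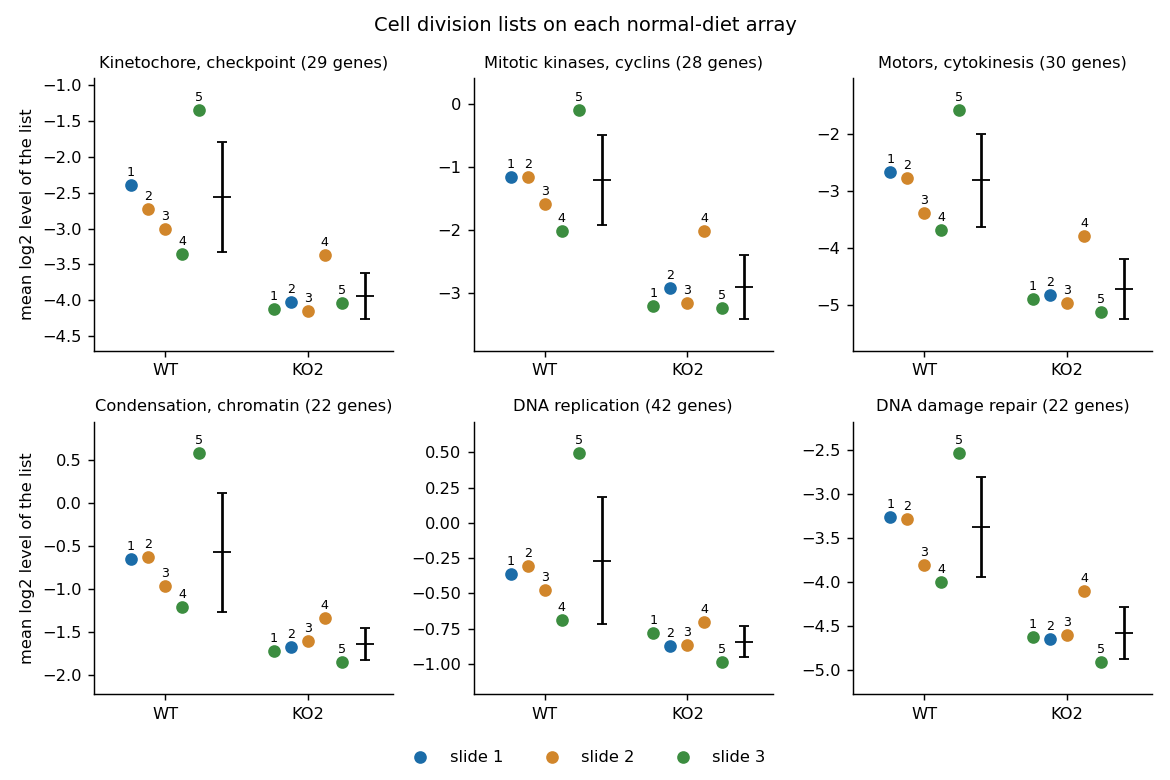
Mean log2 level of each of 6 cell division lists on the 5 WT and 5 KO2 arrays; numbers are replicates, colours are slides and the bar is the mean ± SD. WT replicate 5 is the highest array in every list, and KO2 replicate 4 is the highest KO2 array in every list.

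Genes of cell division often share promoter elements, so the 100 bases before the start site are shown for 3 genes that fell, chosen after their values were seen, to show the elements in place. They come from the RefSeq table of GRCm38.p6, 5′ to 3′ on the gene's strand. Capitals mark the cell cycle homology region (TTTGAA, or TTCAAA on the other strand) and the CCAAT box (CCAAT, or ATTGG on the other strand). Top2a lies at chr11:99024190-99024289 on the minus strand, Ncapg at chr5:45669825-45669924 on the plus strand and Cdca8 at chr4:124936918-124937017 on the minus strand.
Top2a: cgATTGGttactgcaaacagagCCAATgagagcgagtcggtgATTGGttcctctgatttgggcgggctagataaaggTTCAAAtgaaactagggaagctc
Ncapg: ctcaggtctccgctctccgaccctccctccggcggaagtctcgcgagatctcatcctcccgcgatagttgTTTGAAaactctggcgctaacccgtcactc
Cdca8: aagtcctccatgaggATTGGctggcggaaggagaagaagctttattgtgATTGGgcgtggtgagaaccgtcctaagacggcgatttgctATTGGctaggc

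Top2a holds 3 CCAAT boxes and 1 cell cycle homology region, Ncapg 1 such region and Cdca8 3 CCAAT boxes. Of the 56 cell division genes that fell, 44 had a promoter in the table. TTTGAA was found on either strand within 100 bases in 25.0% of these genes. It was found in 6.76% of all genes in the table and in 4.69% of the tested genes in it. CCAAT was found in 52.3%, against 21.6% and 23.95%. A GLIS motif core, TGGGGGGT on either strand within 250 bases, was found in 0 of the 44 genes. It was found in 2 of 71 genes that rose (2.82%, Ndrg2 and Wfikkn2), against 1.61% of all genes. Within 100 bases it was found in 0 genes of either set. No motif overlaps another in the sequences shown, but CCAAT on the other strand ends in letters that the GLIS core begins with. A match is a description of the letters only.

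Thymus, a tissue rich in dividing cells, was read from its own markers. Thymic epithelium genes, 12 measured, had a mean level of −2.40, 1.18, −0.37, 0.13 and 0.59 on the WT arrays, in replicate order, and −2.78, −0.58, −2.52, −2.33 and −3.21 on the KO2 arrays. WT replicate 1 was among the KO2 arrays and KO2 replicate 2 among the WT arrays. Of the 12, 5 fell (41.7%, against 0.898% of all genes lower) and 0 rose. They included the thymus-specific protease Prss16 (−4.37 ± 0.77 SE, adjusted p = 0.00977), the chemokine Ccl25 (−3.46 ± 0.76 SE, adjusted p = 0.0309) and the cortical proteasome subunit Psmb11 (−5.19 ± 1.21 SE, adjusted p = 0.0427). Psmb11 was −4.78, 2.65, 1.30, 1.59 and 2.91 in WT and −4.95, −0.81, −5.66, −4.94 and −5.95 in KO2. Within slides 1, 2 and 3 its difference was 3.97, −7.27 and −7.70, so its direction turned on slide 1, which held WT replicate 1 and KO2 replicate 2. The median of the list was 1.62, −1.86 and −2.76 within those slides. Psmb11 and Ccl25 each lost the call with 7 of the 10 arrays left out in turn, and Cd83, which dendritic cells share, with 5.

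Thymocyte and T cell genes, 21 measured, were −3.16, −2.37, −3.62, −3.34 and −0.14 in WT and −3.74, −2.13, −4.03, −3.47 and −4.28 in KO2. None passed the limma test, 4 had an unadjusted p under 0.05 (against 2360 of all 17932 genes), and the groups overlapped. The T cell receptor chain gene Cd3d was −2.76 to 2.38 in WT and −6.80 to −0.10 in KO2 (−3.61 ± 1.20 SE, adjusted p = 0.172), and Dntt, which cortical thymocytes express, reached 5.12 on a WT array. No thymocyte marker was below background on all WT arrays.

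Cell division genes were then read on WT replicate 1 and KO2 replicate 2, chosen after their thymus levels were seen. WT replicate 1 was low for thymic epithelium (−2.40), but its thymocyte level (−3.16) lay within the range of the other WT arrays (−3.62 to −0.14). KO2 replicate 2 was the highest KO2 array in both lists. The cause of their cell division levels was not tested. WT replicate 1, the lowest WT array over all 33 thymus markers, lay above every KO2 array in 123 of the 173 cell division genes (71.1%), against 14.8% of all genes. KO2 replicate 2, the highest KO2 array over these markers, lay below every WT array in 122 of the 173 (70.5%), against 18.2%. Both held for all 56 that fell, which were chosen for lying lower in KO2. On slide 1, which held only these arrays, the thymic epithelium list was higher in KO2 and the cell division median was −1.15. The mean level of the 173 cell division genes was −1.64, −1.70, −2.07, −2.36 and −0.64 in WT and −3.05, −3.001, −3.07, −2.41 and −3.19 in KO2. WT replicate 5, highest in thymocyte genes, was the highest WT array in 153 of the 173 genes, against 13.8% of all genes. KO2 replicate 4 was the highest KO2 array in 82 of them, against 30.8% of all genes.

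With the mean thymus level of 33 genes as a covariate, 11 genes passed (0.0613%), 9 that rose and 2 that fell. All 253 calls kept their sign and an unadjusted p under 0.05, as did 1736 genes in total. The median of the 173 cell division genes was −0.66 with the covariate, and 1 of them passed, Neil3. Those that rose included Sdr16c6 (adjusted p = 0.00606), Atp6v1c2 (0.0102), Ndrg2 (0.0109), Grp (0.0343) and the muscle-type adenylosuccinate synthase Adssl1 (0.0109). The other to fall was the matrix protein Mfap4 (0.0370).

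**Figure D4:**
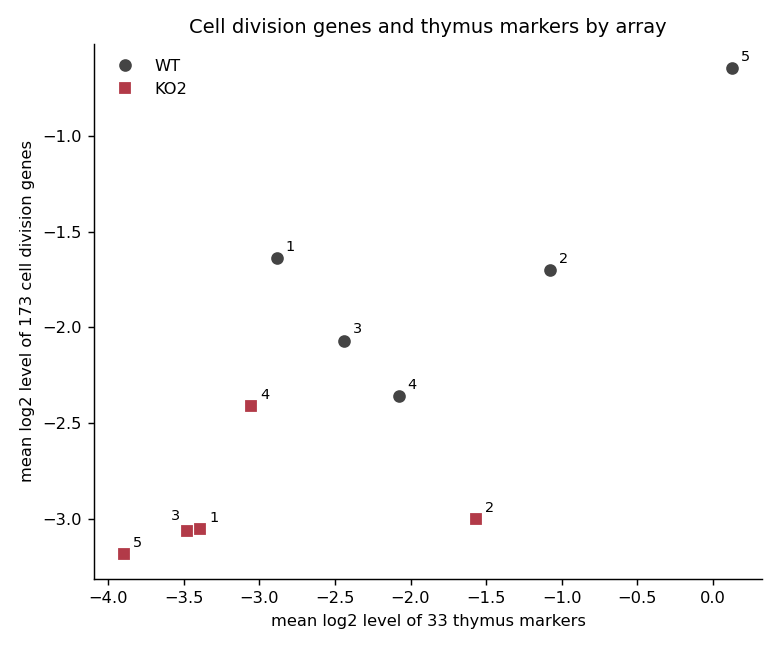
Each point is 1 normal-diet array, with the mean log2 level of 33 thymus markers on the horizontal axis and that of 173 cell division genes on the vertical axis; numbers are replicates. WT replicate 1 (−1.64) lies above the KO2 arrays at a low thymus level, and KO2 replicate 2 (−3.001) lies with the other KO2 arrays at a high one.

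Fibrillar collagens and related matrix genes fell in 6 of 38 cases, with 0 higher (15.8%, against 1.41% of all genes). Their median difference of −0.31 split into −0.29, −0.44 and −0.32 by slide. Col3a1, a collagen of loose connective tissue, was 3.89, 4.19, 4.89, 4.01 and 4.37 in WT and 0.48, 2.33, 1.63, 3.62 and 2.59 in KO2. The KO2 arrays were spread widely, all below the WT arrays, and the difference was −2.14 ± 0.44 (SE, 4.41-fold lower, adjusted p = 0.0214). The call was lost without WT replicate 3, WT replicate 5 or KO2 replicate 3 (0.0691). Its partners of the type I fibril had −1.82 ± 0.40 (SE, Col1a1, adjusted p = 0.0310) and −1.21 ± 0.25 (SE, Col1a2, adjusted p = 0.0190). Col1a2 lost its call without WT replicate 3 (0.0537). The basement membrane collagens Col15a1 and Col18a1 fell by 1.41 ± 0.26 and 1.42 ± 0.26 (SE), and Col14a1, which binds fibrils, by 1.75 ± 0.37 (SE). Col14a1 lost its call with 5 of the 10 arrays left out in turn and when its probes were averaged. The count for the list ranged from 2 to 9 with 1 array left out, being 2 without WT replicate 3, 3 without WT replicate 5 and 3 without KO2 replicate 3.

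Of 16 fibroblast markers measured, 14 had a negative difference, the median was −0.93, and 5 fell (31.2%, against 0.898% of all genes lower), 4 of them the collagens above, and the fifth was Mfap4, a microfibril protein. Mfap4 was −0.73, 0.05, 0.10, −0.30 and −0.56 in WT and −2.04, −2.10, −2.58, −1.45 and −1.76 in KO2 (−1.70 ± 0.23 SE, 3.24-fold lower, adjusted p = 0.00331). Of the 11 that did not pass, 6 were lower at an unadjusted p under 0.05 by limma, among them Lum (−1.43), Pi16 (−1.56) and Clec3b (−0.95). Of all 17932 genes, 2360 had such a p in either direction. Dcn (0.18), Gsn (−0.03), Pdgfra (−0.13) and Twist2 (−0.15) lay nearest to 0, and Dpep1 had 0.52. The mean level of the list was 1.63 to 2.18 in WT and 0.41 to 1.56 in KO2. Col2a1, of cartilage, fell by 1.92 ± 0.38 (SE, adjusted p = 0.0163), 1 of 14 cartilage markers (7.14%, against 0.898% of all genes lower). It lost the call without WT replicate 5 or KO2 replicate 3 (0.0552).

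Calls in markers of glands and airways next to the thyroid were few outside 1 gene family. Of 23 salivary gland markers 6 fell (26.1%, against 0.898% of all genes lower), all of the Klk1b family of glandular kallikreins. Whether the probes tell the near-identical copies of this family apart was not tested, so the 6 may not be separate genes. Klk1b9 was 0.43, 0.91, 1.20, 1.81 and 0.15 in WT and −3.58, −2.24, −4.73, −0.26 and −2.58 in KO2 (−3.58 ± 0.61 SE, 11.9-fold lower, adjusted p = 0.00959). Klk1b24 and Klk1b3 fell by 3.33 ± 0.64 and 2.24 ± 0.44 (SE). Klk1b11, below background on every KO2 array, was by its bound at least 1.64-fold lower. Over 30 alternatives its difference reached −0.17, and it lost its call with normexp background correction. Of 16 airway markers 1 fell (6.25%, against 0.898% of all genes lower), Bpifb1, a secreted airway protein (−2.01 ± 0.36 SE, adjusted p = 0.0104). Of the 16 airway markers, 13 had a negative difference, and the median was −0.99 (−0.87, −1.12 and −1.32 within slides 1, 2 and 3). For 4 of them every KO2 array lay below every WT array, against 1.66% of all genes. Reg3g (−3.67), Scgb3a2 (−2.56) and Ltf (−2.37) were among the lower ones that did not pass. The cilia gene Tekt1 had 0.84 ± 0.31 (SE, adjusted p = 0.235) and the mucin Muc5ac 0.04. The mean airway level was −0.79 to 0.04 in WT and −2.51 to −0.80 in KO2, and the mean salivary level −3.10 to −2.26 and −4.94 to −3.12. Of 16 squamous and basal epithelium markers 2 fell (12.5%, against 0.898% of all genes lower), and the median of the list was −0.12. The 2 were the keratins Krt14 (−1.52 ± 0.29 SE, adjusted p = 0.0150) and Krt5 (−2.75 ± 0.64 SE, adjusted p = 0.0434). Krt5 is also made by thymic epithelium, where it counts among the 5 calls, and lost its call with 7 of the 10 arrays left out in turn. The part of these tissues in the results on the thyroid was not tested.

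Skeletal muscle and brown fat RNA varied widely without a call. The 26 muscle genes had a mean level of −2.90, 1.83, −0.39, −3.18 and −1.58 in WT and 2.09, 1.87, −3.79, 3.08 and −0.68 in KO2. By limma none passed and 5 had an unadjusted p under 0.05, against 2360 of all 17932 genes. All 26 had a positive difference, and their median of 1.88 split into 4.74, −1.20 and 3.32 by slide. Acta1, the skeletal actin, was −2.51 to 5.52 in WT and −2.53 to 7.03 in KO2. The 13 brown fat genes ran from 0.40 to 1.89 in WT and from −0.11 to 2.56 in KO2. None passed the limma test, and 2 had an unadjusted p under 0.05. Ucp1, the uncoupling protein that defines brown fat, was 3.97 to 5.50 in WT and −0.86 to 6.65 in KO2, the low value being KO2 replicate 1. Parathyroid hormone (Pth) was 8.27 to 8.75 in WT and 8.15 to 8.87 on 4 KO2 arrays, but 1.59 on KO2 replicate 3, and of the 8 parathyroid genes none passed and 3 had an unadjusted p under 0.05 by limma.

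**Figure D5:**
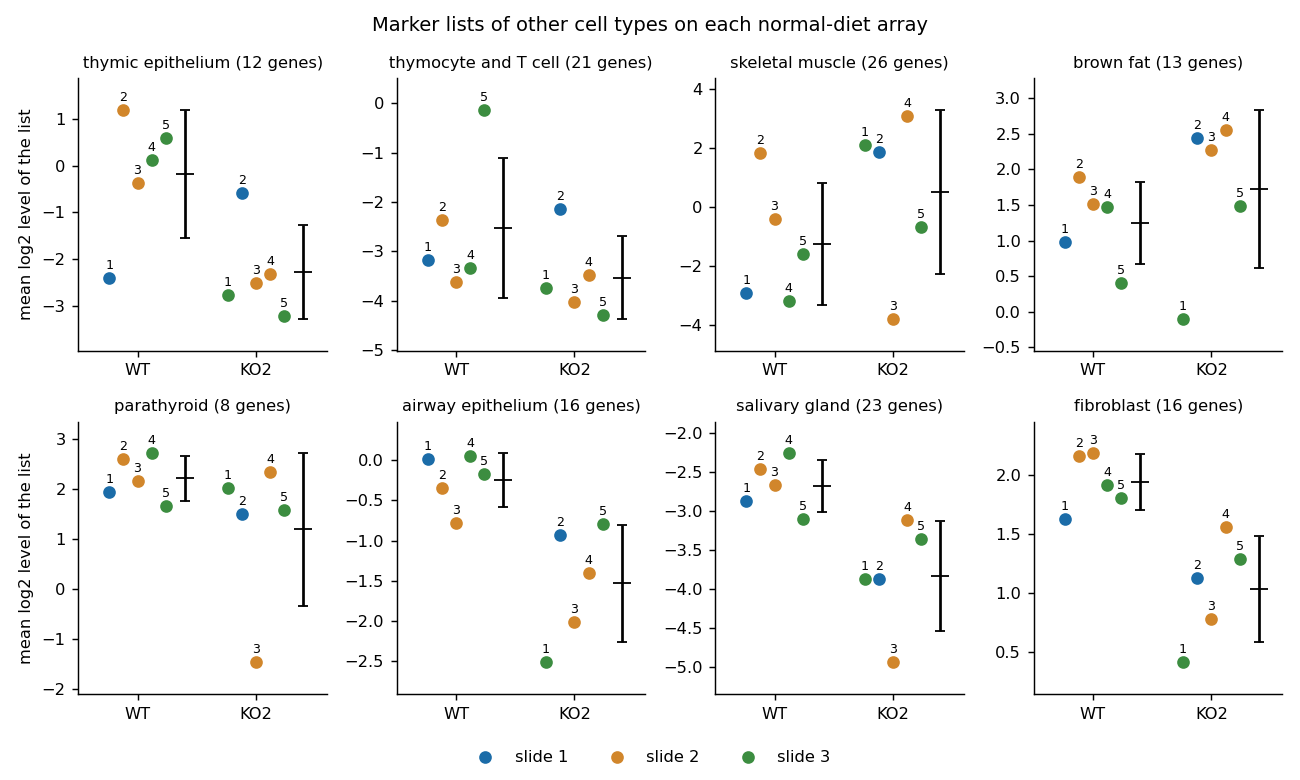
Mean log2 level of 8 marker lists of other cell types on the 5 WT and 5 KO2 arrays; numbers are replicates, colours are slides and the bar is the mean ± SD. Thymus, muscle and brown fat levels overlap between the genotypes, KO2 replicate 3 lacks the parathyroid level of the other arrays, and the airway, salivary and fibroblast levels of the KO2 arrays lie lower.

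A few genes that fell belonged to none of these lists. Prnd, the prion-like doppel gene, was −2.07 to −1.12 in WT and −5.80 to −2.68 in KO2 (−2.71 ± 0.55 SE, adjusted p = 0.0194), and lost its call with 4 of the 10 arrays left out in turn. Gbp8, an interferon-induced GTPase gene, fell by 2.49 ± 0.44 (SE, adjusted p = 0.0106). The 23 interferon-stimulated genes had no call by limma and 14 with an unadjusted p under 0.05, all lower, with a median of −0.75 and −0.13, −0.51 and −1.33 within the slides, and KO2 replicate 4 (0.28) within the WT range of −0.30 to 0.52. Opn4, the photopigment melanopsin, and Afp, alpha-fetoprotein, were below background on all KO2 arrays. By their bounds they were at least 2.84-fold and 2.70-fold lower. Over 30 alternatives their differences reached −0.47 and −0.44, and both lost their calls with normexp background correction. Limch1, an actin-linked protein gene, fell by 0.84 ± 0.16 (SE, adjusted p = 0.0111) with little spread, −1.32 to −1.02 in WT and −2.29 to −1.70 in KO2.

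Several pathways had no call by limma at an adjusted p under 0.05. In the same fit 2360 of all 17932 genes had an unadjusted p under 0.05. Oxidative phosphorylation had a median of 0.11 over 42 genes, 2 of them with an unadjusted p under 0.05. Folding and stress of the endoplasmic reticulum had −0.29 over 32 genes, also with 2. The circadian clock had 0.31 over 19 genes, with 2, and genes responsive to thyroid hormone had 0.15 over 17, with 3. The IGF system had 12 genes and 1 with such a p. The endoplasmic reticulum list was high on WT replicates 1 (4.87) and 5 (4.56), against 2.85 to 3.84 on the other 8 arrays.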

How the data were processed

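Per the labels, each array read 50 ng of amplified thyroid RNA. Agilent Feature Extraction 12 turned scans into spot values, per the submitters' processing notes. The authors deposited spot intensities, background-subtracted within the array and with no scaling between arrays. The deposited summary table held the same intensities. The other columns used are the deposited flags and median spot and background intensities.

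From log2 of each intensity the 75th percentile of its array was subtracted, leaving out control and outlier-flagged spots. No spot was saturated. Repeat spots were averaged, and 82 probes lost because an array had all their spots flagged were not used. Of 41174 probes, 28223 (68.5%) matched 1 gene of the GRCm38.p6 table by accession and 12951 none. The brightest probe well above background on at least 4 of 18 arrays stood for each of 17932 genes. Among the 103 genes named by rule, 38 had several probes, which differed in sign for 7 (Tg, Slc16a10, Cftr, Kif11, Aspm, Col6a3 and Ddx3y). Where a gene was below background on all arrays of a group, "at least" is a bound for the processing described here, not for the alternatives. It sets the brighter mean against the dimmer one after raising each dim value to the faintest signal called well above background on that array.

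One limma model (limma 3.58.1, R 4.3.3) on 4 group means over 18 arrays gave the differences, with Benjamini-Hochberg adjustment. The model was tested on simulated data. Slides 1, 2 and 3 held WT and KO2 in equal numbers (1 and 1, 2 and 2, 2 and 2), so slide as a block leaves the differences unchanged. Genes were named by rule: Glis3, the thyroid hormone synthesis list, the 12 largest differences of each sign with no overlap, the same sign on 3 slides and at least 3 arrays above background in each group, up to 4 members of each list with a call, calls of the fits on 10 arrays, and sex markers. Dcn, Gsn, Pdgfra, Twist2, Dpep1, Lum, Pi16, Clec3b, Tekt1, Muc5ac, Acta1, Ucp1, Pth and other list members not named by rule were named after their values were seen. Members and lists were chosen with earlier results of these data known. The array number limits the precision. The normexp alternative used the median spot signal, offset 50. Some single genes, of the lists and of the largest differences, are not reported here.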

Additional observations from a re-analysis of the deposited data

Results flagged for a closer look

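Of 294 groups of 5 arrays tested, 27 had 1 array whose gap to the nearest other took up more than 0.710 of the group's range. Chance flags about 1 in 20 groups.

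KO2 replicate 4 was set apart most often, above the other KO2 arrays in cell division genes. Its levels were −0.71 for Mki67 (others −3.42 to −2.66), −3.62 for Shcbp1, −4.42 for Ska1, −1.76 for Cdca3, 0.17 for Tk1 and −1.73 for Cdkn3. Its mean levels were −3.37 for the kinetochore list, −2.02 for mitotic kinases, −3.78 for spindle motors and −2.41 for all 6 cell division lists (others −3.19 to −3.001). It was also the highest KO2 array for Col18a1 (4.48, others 2.90 to 3.22) and the lowest for the mean level of follicular cell markers (2.58, others 2.90 to 2.98). It had the fewest spots well above background, 60.1%, and the part of this in its levels was not tested.

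WT replicate 5 was set apart above the other WT arrays for Kif11 (−2.60), E2f8 (−0.80), Mxd3 (−0.78) and Prnd (−1.12), and below them for Kdm5d (−8.22). WT replicate 1 was the lowest WT array for Psmb11 (−4.78, others 1.30 to 2.91) and Dio3 (−5.83), and WT replicate 3 the lowest for Dusp1 (0.025, others 1.15 to 1.35).

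KO2 replicate 2 stood above the other KO2 arrays for the thymic epithelium genes Psmb11 (−0.81, others −5.95 to −4.94) and Ccl25 (1.42, others −1.35 to −0.67), and below them for Ano1 (−1.31). KO2 replicate 1 was the lowest KO2 array for Col1a2 (1.84, others 2.96 to 3.30) and for the mean level of the matrix list (−0.20, others 0.25 to 0.40). KO2 replicate 3 was lowest for the mean level of parathyroid genes (−1.47, others 1.49 to 2.33). KO2 replicate 5 was lowest for Xist (−5.64, others 2.11 to 2.60).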

How the results depend on the processing

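Over 30 alternatives no named call reversed its direction. The calls of Sdr16c6, Atp6v1c2 and Ndrg2 were kept in all 30, and 21 of the 72 named calls were kept in all but the fits of 10 arrays alone or with a covariate. With any 1 array left out, 54 of the 72 were kept. Normexp background correction removed the calls of the cell division genes Ska1, Knl1, Kif11, Kif18b, Aspm, Neil3, Esco2, Chek1, Top2a and E2f8. It also removed those of Mxd3, H2ac4, Bpifb1, Klk1b11, Opn4, Afp, Limch1 and Snx31. The count of 253 genes became 3 with the 10 arrays alone, 5 with slide as a block in these, 196 with slide on all 18, 166 with a replicate block, 990 with a weight for each array, 392 with a trended and robust variance, 11 with the thymus level as a covariate and 124 to 679 without 1 array. Alternatives added after seeing the data gave 16 with thymic epithelium as the covariate, 557 without WT replicate 5 and KO2 replicate 4, and 65 without WT replicate 1 and KO2 replicate 5. The 56 cell division calls became 0, 0, 21, 1 and 0 with the 10 arrays, the 10 arrays with slide, the replicate block, the thymus and the thymic epithelium covariates. They became 33 with normexp, 13 without WT replicate 1 and KO2 replicate 5, and 38 to 69 without 1 array. The 6 matrix calls became 0, 0, 2, 0 and 0 in the same 5 fits, 12 with array weights, 1 without WT replicate 1 and KO2 replicate 5, and 2 to 9 without 1 array. The cause was not tested. Of the calls 63.6% were lower, against 73.7% with median scaling and 90.6% unscaled, which moved the median of all genes from 0.04 to 0.02 and −0.11. Same-numbered WT and KO2 arrays correlated in their deviations at −0.038 to 0.322, with 0.291 for replicate 2 and 0.322 for replicate 5. Replicates 3 and 5 also shared a slide. The labels do not say whether a shared number pairs arrays, and these values cannot decide it. Genes near background have only bounds on their differences.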

Other observations

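Some genes that the fit of the 10 arrays with slide as a block ranked high did not pass in the fit of 18 arrays. The acid-sensing channel gene Asic3 was −5.25 to −4.29 in WT and −3.38 to −2.30 in KO2 (1.75 ± 0.48 SE, adjusted p = 0.0892 by limma on 18 arrays). The complement gene C8b was −5.43 to −4.26 in WT and −7.00 to −5.95 in KO2 (−1.46 ± 0.60 SE, adjusted p = 0.295). The collagen VI chain gene Col6a3 was 0.86 to 1.38 in WT and −0.08 to 0.72 in KO2 (−0.95 ± 0.28 SE, adjusted p = 0.114), and another of its probes differed in sign. The wax synthase gene Awat2 was −5.86 to −4.48 in WT and −6.79 to −5.59 in KO2, with overlap (−1.02 ± 0.43 SE, adjusted p = 0.305). Adssl1 was 3.07 to 3.99 in WT and 4.77 to 5.03 in KO2 and passed in the fit of 18 arrays (1.34 ± 0.19 SE, adjusted p = 0.00397).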
